A study of Mus musculus with 6 samples.

Results

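The PSD-95 family scaffolds (Dlg1 to Dlg4), their SAPAP partners (Dlgap1 to Dlgap4) and Baiap2, which encodes IRSp53, were followed in mouse primary visual cortex (V1) after brief closure of an eye. The 9 genes were taken by symbol from a count table of 52636 genes. A further 8 circular RNAs (circRNAs) were taken from a table of 1488 because their host gene column names a member of the set. All animals were C57BL/6J, wild-type, and 28 days old (P28). The right eyelids had been sutured for 3 days in every mouse. V1 of the left hemisphere is contralateral to that eye and V1 of the right hemisphere ipsilateral, and both were taken from each of 3 mice, which gave 3 libraries per hemisphere. Undeprived mice are not part of these groups, so every value below compares hemispheres within deprived animals. The tissue was bulk micro-dissected cortex, in which fewer cells of a type and less RNA per cell cannot be told apart.

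PSD-95 (Dlg4), PSD-93 (Dlg2), SAP97 (Dlg1) and SAP102 (Dlg3) are membrane-associated guanylate kinases. Their PDZ domains hold NMDA receptor subunits, neuroligins and the auxiliary subunits of AMPA receptors at excitatory synapses, and their guanylate-kinase-like domain binds SAPAPs. SAPAPs in turn bind Shank proteins, which are linked to Homer, so the set forms the layer between receptors and the deeper scaffold. Closing an eye in juvenile life shifts the responses of V1 towards the open eye, and PSD-95 is known for its part in the maturation of excitatory synapses in this cortex.

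Reads assigned to genes numbered 17849253 to 32213500 per library, and back-splice reads 13428 to 26867. Levels are given as CPM, the counts of a gene relative to the library's total after TMM scaling. The mitochondrial ribosomal RNA mt-Rnr1 stood at 14.5 to 35.9 CPM in 3 libraries (contralateral mouse 1, ipsilateral mice 1 and 3) and at 2243 to 5801 CPM in the other 3, so both libraries of mouse 1 were low, both of mouse 2 were high and those of mouse 3 were split. The contralateral library of mouse 2 stood apart in another measure. There, the predicted transcripts that GENCODE classes as TEC, outside the introns of Dlg2, summed to 9489 CPM, against 6095 to 7577 CPM in the remaining libraries. Excitatory cortical neuron markers summed to 3727 to 5092 CPM and were all present. The 3 thalamic markers summed to 20.1 to 27.96 CPM, with Lhx9 at 0.778 CPM on average.

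Per kilobase of exon, Dlg4 was the most abundant of the 9 genes and Dlgap2 the least. CPM were divided by the exon length in kilobases wherever genes are set against each other. That length sums all annotated exons of a gene, 4.98 kb for Dlg4, 4.52 for Dlgap3, 13.2 for Dlg2 and 17.0 for Dlgap1. Undivided, the order differed: Dlg2 averaged 944 CPM against 802 for Dlg4, and Dlgap1 723 against 414 for Dlgap3. Which of the annotated exons were transcribed here was not tested. Dlg4 stood at 161 ± 20.9 CPM per kb (SD, n = 6 libraries), above the next gene, Dlgap3, in 6 of 6 libraries and without overlap of their ranges. Dlgap3 followed at 91.5 ± 23.8 and Dlg2 at 71.4 ± 2.42 CPM per kb, and their ranges overlapped. Dlg2 exceeded Dlgap1 (42.5 ± 2.53 CPM per kb) 1.68-fold, in 6 of 6 libraries. From Dlgap1 downwards the order was Baiap2 at 38.1 ± 5.51, Dlg1 at 34.7 ± 2.52, Dlgap4 at 31.3 ± 3.82, Dlg3 at 29.6 ± 3.78 and Dlgap2 at 23.2 ± 1.85 CPM per kb. In that lower stretch the ranges of all neighbours overlapped.

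**Figure D1:**
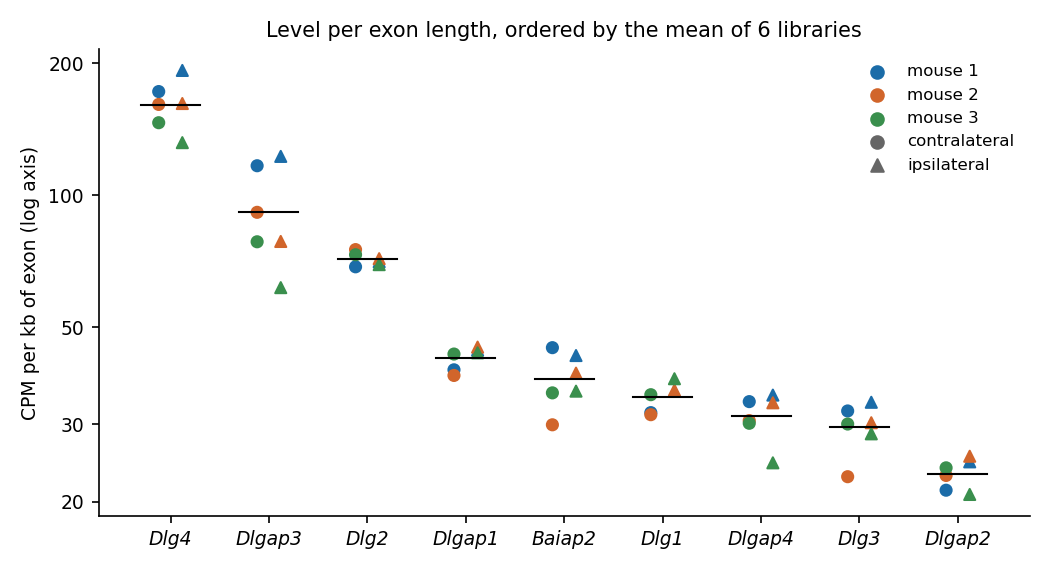
Level of each scaffold gene per kilobase of exon (CPM per kb), on a log axis, with 1 point per library, colours for mice, circles for contralateral and triangles for ipsilateral V1, and a line at the mean of 6 libraries. Dlg4 lies above all other members in 6 of 6 libraries, and from Dlgap1 to Dlgap2 the ranges of neighbours overlap.

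Within each family, Dlg4 and Dlgap3 made up the greatest shares of the summed CPM per kb in both hemispheres. These shares rest on the summed exon lengths, and without that division Dlg2 and Dlgap1 had the higher CPM. Dlg4 made up 54.4 ± 2.67% of the family's summed CPM per kb in contralateral V1 and 53.7 ± 4.37% in ipsilateral V1 (SD, n = 3 each). Dlg2 held 24.7 ± 1.90% and 23.7 ± 2.36%, Dlg1 11.2 ± 0.979% and 12.3 ± 1.77%, and Dlg3 9.66 ± 1.57% and 10.3 ± 0.312%. Among the SAPAPs, Dlgap3 held 49.8 ± 5.29% of the summed level in contralateral and 46.0 ± 7.11% in ipsilateral V1. Its share spanned 40.9% to 55.1% over the 6 libraries. Dlgap1 held 21.6 ± 2.94% and 24.4 ± 4.74%, Dlgap4 16.6 ± 0.601% and 16.7 ± 1.53%, and Dlgap2 12.04 ± 1.82% and 12.9 ± 1.72%. For all 8 genes the hemispheres' means differed by less than the larger of their SDs. Within mice, the shares of Dlg1, Dlgap1 and Dlgap2 were lower in contralateral V1 in 3 of 3 mice and that of Dlgap3 was higher in 3 of 3. The other 4 shares had no common direction, and an exact sign-flip test over 3 mice cannot give a p below 0.25.

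No member passed a test between the hemispheres, with or without the mouse as a block, which does not show that the hemispheres are equal. Without the block, the 95% intervals reached down to -25.9% for Dlg3 and up to 53.1% for Dlgap3. Intervals and p values of single members below are from the fit without the block, which ignores the pairing, unless the block is named. With edgeR's quasi-likelihood test and Benjamini-Hochberg adjustment over 20473 genes, 0 of 9 members passed an adjusted p of 0.05, while 0.127% of all genes did. With the mouse as a block, 0 of 9 passed, beside 0.894% of all genes. At an unadjusted p under 0.05, 0 members were found, beside 6.15% of all genes. DESeq2 and limma-voom likewise called 0 members. The log2 fold change (contralateral against ipsilateral, so negative values are lower opposite the sutured eye) lay between -0.15 and 0.13 over the 9 genes. Its median was -0.06, against 0.03 over all genes, and 6 of 9 lay below 0, beside 44.6% of all genes. All genes are not matched to the members in level, which matters here. Of genes of 100 to 1500 CPM on average, 41.2% were lower in contralateral V1 in 3 of 3 mice, beside 17.3% of all genes. Among the members, this held for Dlg1 and Dlgap1 alone. The share of genes of that level with a log2 fold change below 0 was not counted, so the 6 of 9 has no matched share.

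Dlg1 encodes SAP97, which binds GluA1 and travels with it in the secretory pathway. It maps to chr16:31663443-31873356 on the plus strand of GRCm38. Dlg1 stood at 286, 283 and 314 CPM in contralateral V1 of mice 1, 2 and 3 and at 320, 322 and 342 CPM in ipsilateral V1. The contralateral library was the lower in 3 of 3 mice and the groups did not overlap. Of all genes, 6.29% had groups that did not overlap in this direction and 17.3% were lower in 3 of 3 mice. Among genes of a like level (100 to 1500 CPM on average) the shares were 15.9% and 41.2%. The log2 fold change was -0.15 (SE 0.12, 95% interval -0.41 to 0.10), with an adjusted p of 0.861 from edgeR's quasi-likelihood test and 0.540 with the mouse block. Among the 3 libraries with little mt-Rnr1 it was -0.22, and among the 3 with much it was -0.11. Each of these splits leaves 1 hemisphere with a lone library and does not keep the mice paired. After a trend with GC content was removed from each library, the log2 fold change of Dlg1 was -0.08. Genes of at least 10 CPM in its GC class (45 to 50%) had a median hemisphere difference of -0.06.

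Dlg2 encodes PSD-93, the closest relative of PSD-95 at the synapse. It spans chr7:91090706-92449247. Its levels were 907, 993 and 966 CPM in contralateral V1 and 932, 947 and 917 CPM in ipsilateral V1. The groups overlapped, with the highest value in the contralateral library of mouse 2. The SD of log2 CPM over the 6 libraries lay at percentile 1.36 of genes of 100 to 1500 CPM, so Dlg2 was among the steadiest genes of its level. Its log2 fold change was 0.04 (SE 0.13, 95% interval -0.25 to 0.32), an adjusted p of 0.972 by edgeR's quasi-likelihood test.

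Dlg3 encodes SAP102, the member most prominent early in synapse development. It maps to chrX:100767722-100818410. It stood at 188, 133 and 176 CPM in contralateral and 197, 177 and 167 CPM in ipsilateral V1. The contralateral library of mouse 2 was the lowest, and the groups overlapped. Its log2 fold change was -0.12 (SE 0.14, 95% interval -0.43 to 0.19), an adjusted p of 0.904 by edgeR's quasi-likelihood test. Without the contralateral library of mouse 2, which also had the highest TEC sum, it was 0.01. The part of that library's make-up in the value was not tested.

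Dlg4, which encodes PSD-95, showed no common direction. It maps to chr11:70017085-70045532. Its levels were 858, 802 and 729 CPM in contralateral V1 and 959, 806 and 656 CPM in ipsilateral V1. In both hemispheres mouse 1 was the highest and mouse 3 the lowest, and the ipsilateral values enclosed the contralateral ones. The difference within mice was -0.16 on the log2 scale in mouse 1, -0.01 in mouse 2 and 0.15 in mouse 3. Over all mice the log2 fold change was -0.02 (SE 0.16), an adjusted p of 0.991 by edgeR's quasi-likelihood test. Its 95% interval in percent ran from -22.4% to 25.4%, so changes within those bounds are compatible with these libraries. With the mouse block the 95% interval was -0.27 to 0.26 on the log2 scale.

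**Figure D2:**
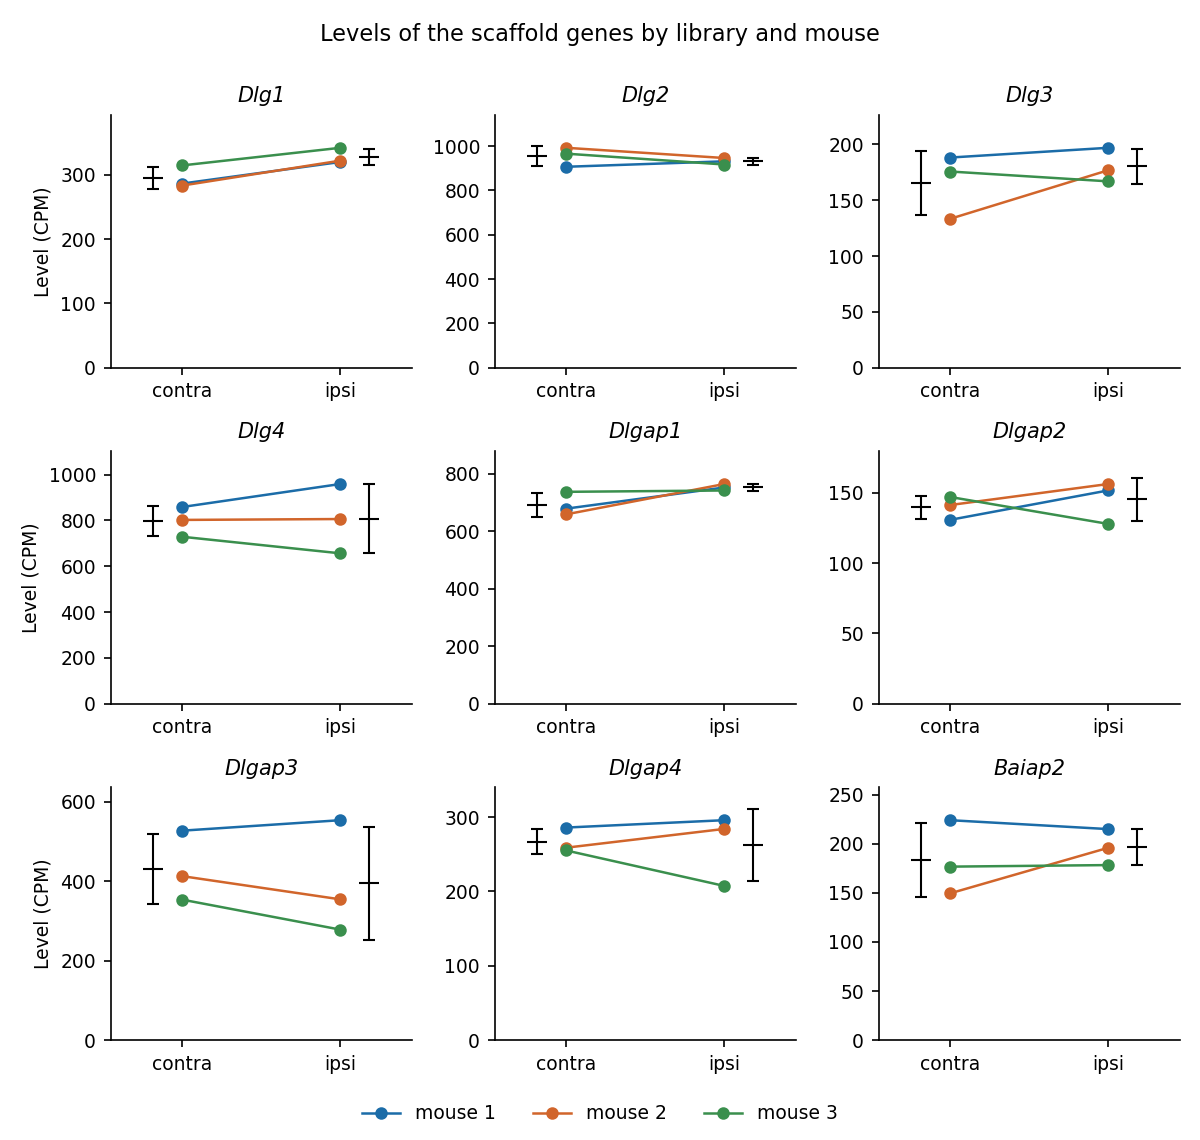
CPM of each scaffold gene in the 6 libraries, with 1 line per mouse joining its contralateral and ipsilateral library and black marks for the mean ± SD. Dlg1 and Dlgap1 have groups that do not overlap, and Dlgap3 is ordered by mouse in both hemispheres.

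The SAPAPs gave the same overall result, with values spread more widely for Dlgap3 than for the others. Dlgap1 encodes SAPAP1 (GKAP), which joins the guanylate-kinase-like domain of PSD-95 to Shank. It spans chr17:69969073-70821413. It stood at 679, 659 and 738 CPM in contralateral and 753, 765 and 743 CPM in ipsilateral V1. The contralateral library was the lower in 3 of 3 mice and the groups did not overlap, but in mouse 3 the difference was -0.01 on the log2 scale. As given for Dlg1, 6.29% of all genes and 15.9% of genes of 100 to 1500 CPM had such groups, and 17.3% and 41.2% were lower in 3 of 3 mice. The log2 fold change was -0.12 (SE 0.13, 95% interval -0.40 to 0.16), with an adjusted p of 0.891 from edgeR's quasi-likelihood test and 0.693 with the mouse block. It was -0.15 among the libraries with little mt-Rnr1, -0.13 among those with much, and -0.06 after removal of the GC trend. As for Dlg1, each mt-Rnr1 split leaves 1 hemisphere with a lone library.

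Dlgap2, which encodes SAPAP2, lies at chr8:14095865-14847680. Dlgap2 stood at 131, 141 and 147 CPM in contralateral and 152, 156 and 128 CPM in ipsilateral V1. The groups overlapped, and mouse 3 had the lowest ipsilateral value. Its log2 fold change was -0.06 (SE 0.12, 95% interval -0.32 to 0.21), an adjusted p of 0.951 by edgeR's quasi-likelihood test. Dlgap4, which encodes SAPAP4, lies at chr2:156613705-156764363. Dlgap4 stood at 286, 259 and 255 CPM in contralateral and 296, 284 and 207 CPM in ipsilateral V1. Those groups overlapped too, and the lowest of the 6 values was that of ipsilateral mouse 3. For Dlgap4 the log2 fold change was 0.02 (SE 0.15, 95% interval -0.30 to 0.34), an adjusted p of 0.986 by edgeR's quasi-likelihood test. An exon of Dlgap4 shares 24 bases with 4930405A21Rik on the other strand. The strand setting of the counts was not given.

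Dlgap3 encodes SAPAP3, known for its high level in striatum and for the compulsive grooming of mice that lack it. It maps to chr4:127169204-127237022. Its levels were 528, 413 and 354 CPM in contralateral V1 and 554, 355 and 278 CPM in ipsilateral V1. The groups overlapped, and mouse 1 was the highest in both hemispheres. Between hemispheres the log2 fold change was 0.13 (SE 0.23, 95% interval -0.36 to 0.61), an adjusted p of 0.941 by edgeR's quasi-likelihood test. With the mouse block it was 0.17 (95% interval -0.08 to 0.41), an adjusted p of 0.570. Without the contralateral library of mouse 1 the value was -0.05, and without the ipsilateral library of mouse 3 it was -0.08.

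Baiap2 encodes IRSp53, an I-BAR protein that bends membrane, links Rac1 and Cdc42 to actin and binds PSD-95 and Shank. It maps to chr11:119942763-120006782. It stood at 224, 150 and 177 CPM in contralateral V1 and at 215, 196 and 178 CPM in ipsilateral V1. As for Dlg3, the contralateral library of mouse 2 was the lowest and the groups overlapped. The log2 fold change was -0.10 (SE 0.15, 95% interval -0.43 to 0.23), an adjusted p of 0.934 by edgeR's quasi-likelihood test. Without the contralateral library of mouse 2 it was 0.03. With the mouse block the 95% intervals were -0.34 to 0.11 for Baiap2, -0.36 to 0.09 for Dlg3 and -0.23 to 0.30 for Dlg2. They were -0.27 to 0.16 for Dlgap2 and -0.19 to 0.27 for Dlgap4.

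**Figure D3:**
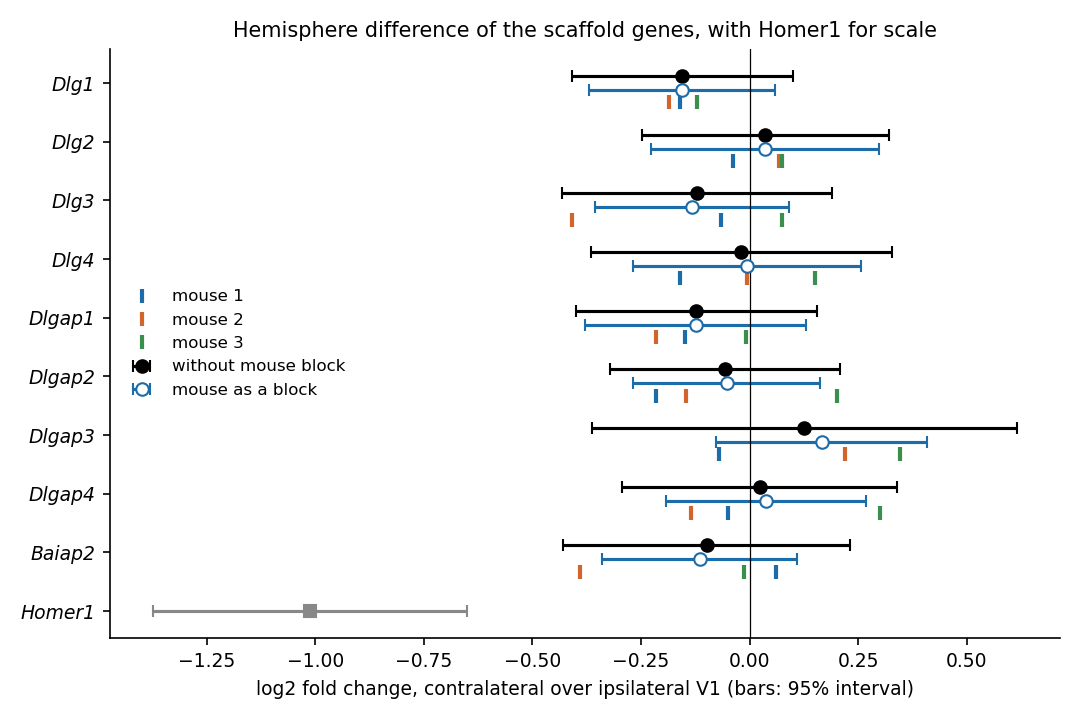
Log2 fold change (contralateral against ipsilateral V1) of each scaffold gene with its 95% interval, without and with the mouse as a block, coloured ticks for the difference within each mouse, and Homer1 for scale. Every interval of the 9 scaffold genes includes 0 in both fits.

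Dlgap3 differed between the mice. Its mouse means were 541, 384 and 316 CPM, a 1.72-fold range. The mouse term of the blocked fit had an adjusted p of 0.00577 for Dlgap3 by edgeR's quasi-likelihood test, beside 6.41% of all genes and 9.83% of genes of 100 to 1500 CPM that passed. The other 8 members did not pass that test, with adjusted p values of 0.177 for Baiap2, 0.270 for Dlg4, 0.274 for Dlgap4 and 0.294 for Dlg3. Mouse 1 had the highest mean for all 5 of these genes. Dlg4 means were 908, 804 and 692 CPM in mice 1 to 3. Dlg1, Dlg2, Dlgap1 and Dlgap2 ranged at most 1.09-fold between mouse means.

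The GC content of the transcript moved with the difference between mice. In genes of at least 10 CPM, the median log2 difference of mouse 3 against mouse 1 was 0.23 in the class under 40% GC and -0.64 in the class of 60% and above. It stepped down through 0.16, 0.06, -0.13 and -0.39 in the classes between. Dlgap3, at 63.9% GC in its principal transcript, exceeded 99.5% of those genes in GC content, and its own difference was -0.79. Dlg4 (57.9% GC) had a difference of -0.39, the median of its class. Dlgap4 (59.4% GC) had -0.33, and Dlg1 (45.2% GC) had 0.12. Baiap2 (60.1% GC) had -0.31 and Dlgap2 (56.9% GC) -0.04, both nearer to 0 than their classes. With a GC trend removed from each library, a step added after the data were seen, the difference was -0.02 for Dlgap3, and its adjusted p for the mouse term was 0.990 in edgeR's quasi-likelihood test. The same step moved Dlg4 to 0.04, Dlgap4 to 0.18, Baiap2 to 0.25 and Dlgap2 to 0.34, so all 4 crossed 0, and Dlgap2 lay farther from it than as measured. None of these 4 passed the mouse term after it, with adjusted p values of 0.899, 0.535, 0.466 and 0.236 in edgeR's quasi-likelihood test. The number of genes passing the mouse term went from 1313 to 94 with that step. The trend was fitted to these same libraries, so it takes up any difference between mice that runs with GC content. Smaller differences for genes near their class median, and fewer genes passing, therefore follow from the step and decide nothing about a cause. The level of mt-Rnr1 was low in both libraries of mouse 1, high in both of mouse 2 and split between those of mouse 3. Its part in the difference between mice was not tested. Whether GC content itself accounts for the difference between mice was not tested. The hemisphere difference went with GC content as well, over a narrower range. From the lowest GC class to the highest, its median (contralateral against ipsilateral) was -0.06, -0.09, -0.06, -0.02, 0.02 and 0.05. Dlg1 and Dlgap1 (46.8% GC) lie in the class of 45 to 50%, and Dlgap3 in that of 60% and above. The part of this trend in the members' hemisphere differences and shares was not tested.

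**Figure D4:**
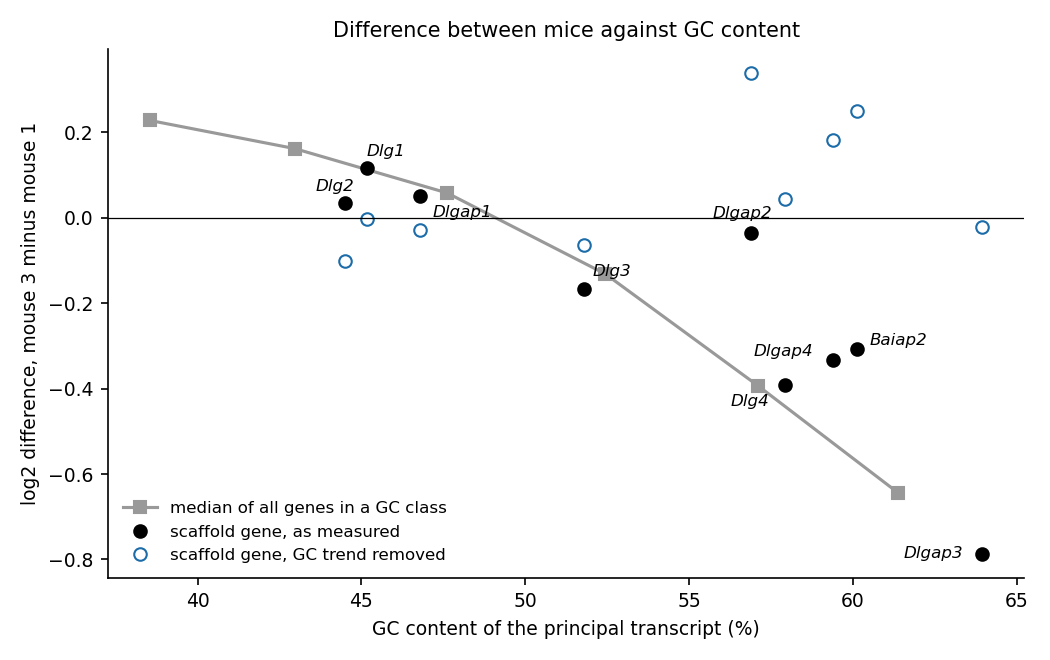
Log2 difference between mouse 3 and mouse 1 (mean of both hemispheres) against the GC content of the principal transcript in percent, with filled points for the scaffold genes as measured, open points after removal of the GC trend, and a line for the medians of all genes by GC class. Dlgap3 lies at the high-GC end at -0.79, beside a class median of -0.64.

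Over the 6 libraries, the members' log2 CPM formed pairs that moved alike. These correlations are descriptions over 6 libraries that share mice, depth and the GC trend. Dlg4 followed Dlgap3 (Pearson's r 0.94) and Dlgap4 (0.91), Dlg3 followed Baiap2 (0.93) and Dlg1 followed Dlgap1 (0.89). The genes most like Dlg4, by the root mean square difference of mean-centred log2 CPM among 9384 genes of at least 10 CPM, were Ube3b (a ubiquitin ligase, 0.0234), Trmt2a (a tRNA methyltransferase, 0.0254) and Slc9a3r1 (a PDZ scaffold, 0.0268). All 3 were highest in ipsilateral mouse 1 and lowest in ipsilateral mouse 3, as was Dlg4, which follows from how they were chosen.

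Among the partners around these scaffolds, 1 gene passed in both fits. Homer1, the coat that crosslinks Shank and whose short form is induced by activity, stood at 411 ± 74.8 CPM in contralateral and 828 ± 117 CPM in ipsilateral V1 (SD, n = 3 each). Its log2 fold change was -1.01 (SE 0.17), an adjusted p of 0.0416 by edgeR's quasi-likelihood test and 0.000697 with the mouse block. Homer1 and every other gene lost the call without the contralateral library of mouse 2, when 0 genes passed. Of the 6 Shank and Homer genes tested, the other 5 did not pass, and the list's median log2 fold change was 0.01, against 0.03 over all genes.

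The remaining partner lists held 0 genes that passed in either direction, with or without the block. They comprised 18 MAGUK relatives (median log2 fold change -0.03), 25 membrane partners of the PDZ domains (-0.11), 18 cytoplasmic partners (-0.01), 11 palmitoylation enzymes (-0.13) and 13 IRSp53 relatives and partners (-0.01). Among MAGUK relatives Mpp3, a scaffold of the p55 subfamily, had the smallest p, with a log2 fold change of -0.43 and an adjusted p of 0.548 by edgeR's quasi-likelihood test, or 0.0530 with the mouse block. Among membrane partners Erbb4, the neuregulin receptor that is concentrated in GABAergic interneurons, had -0.35, the adhesion protein gene Lrrtm3 -0.35 and the potassium channel gene Kcna1 -0.30. Their adjusted p values were 0.673, 0.676 and 0.784 by edgeR's quasi-likelihood test. The membrane partners summed to 4936 CPM in the lowest contralateral library and to 6389 in the highest, against 6271 to 6357 in ipsilateral V1. That lowest library was contralateral mouse 2, which also had the highest TEC sum. Among palmitoylation enzymes Zdhhc5, which can modify synaptic proteins, had -0.26 and Zdhhc2, a PSD-95 palmitoyl transferase, -0.20, with adjusted p values of 0.806 and 0.827 by edgeR's quasi-likelihood test.

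Markers of other cell types were set beside these values. The 5 GABAergic markers summed to 516 to 568 CPM in contralateral and 642 to 792 CPM in ipsilateral V1, and all 5 had log2 fold changes below 0. None passed without the block, and with it 3 of 5 did: Gad1 (-0.56, adjusted p = 0.00558), Gad2 (-0.48, 0.0301) and Dlx6os1 (-0.54, 0.0451), by edgeR's quasi-likelihood test. Excitatory, astrocyte, oligodendrocyte, oligodendrocyte precursor, microglial, vascular, thalamic and hippocampal lists held 0 passing markers in either fit. The 6 oligodendrocyte markers summed to 3358 to 5705 CPM in contralateral and 4676 to 5812 CPM in ipsilateral V1. All 6 had log2 fold changes below 0, with a median of -0.23. Of the 5 microglial markers 0 lay below 0, and their median was 0.14. The part of cell make-up in the values of Dlg1 and Dlgap1 was not tested.

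CircRNAs are closed by a back-splice that joins the end of an exon to the start of an earlier or the same exon, and their reads are counted at that junction. Of the 8 that name a member as host, 3 came from Dlg1, 3 from Dlgap1, 1 from an intron of Dlg2 and 1 from Dlgap2. None of the 1488 in the table names Dlg3, Dlg4, Dlgap3, Dlgap4 or Baiap2. Exons are numbered in a coding transcript of each gene in GENCODE M21, with 27 exons for Dlg1, 15 for Dlgap1 and 16 for Dlgap2. Back-splice counts cover the junction alone, so the exons between the ends were assumed to be those of that transcript. From 5 to 13 transcripts match both ends of a circle. Under that assumption all exonic sequence in the 7 exonic circles was coding, and the spliced lengths given below rest on it too. The junctions of the 7 exonic circles follow because their reads are what was counted, and because 3 circles of Dlg1 and 2 of Dlgap1 share an end with another of the same host. Each shows the last 15 bases of the last exon in lower case and the first 15 bases of the first exon in capitals, from 5′ to 3′ on the plus strand.
Dlg1 exons 5-12: ctgacatcactaattAAATACCGGTATCAG
Dlg1 exons 5-14: gatcgcatcatatcgAAATACCGGTATCAG
Dlg1 exons 12-14: gatcgcatcatatcgGTGAACAGTGTGTGT
Dlgap1 exons 8-9: tccagagcagcaccgGATCTCCAATGAACA
Dlgap1 exons 10-11: agaagaagagaagtgTGTCATCTTGCATTA
Dlgap1 exons 10-12: acctcccagaagacaTGTCATCTTGCATTA
Dlgap2 exons 8-9: tcaggtcaacagcagCCAGAGCTACCTACA

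The Dlg1 circles lie at chr16:31743106-31797010 (exons 5 to 12, 946 bases when spliced), chr16:31743106-31812824 (exons 5 to 14, 1224 bases) and chr16:31796866-31812824 (exons 12 to 14, 423 bases). The first pair shares the start in exon 5, and the longest shares its end with the circle of exons 12 to 14. The Dlgap1 circles lie at chr17:70657454-70662809 (exons 8 and 9, 419 bases), chr17:70761075-70766089 (exons 10 and 11, 463 bases) and chr17:70761075-70787209 (exons 10 to 12, 885 bases). The last pair shares its start and differs by exon 12, which has 422 bases. The Dlgap2 circle, chr8:14773234-14778415, joins exons 8 and 9 and has 368 bases. The Dlg2 circle lies at chr7:91626329-91626813 within an intron, and its junction is not printed because no genome sequence was used here.

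Back-splice reads were few beside the gene reads of each host. Dlg1 had 4.26 back-splice reads per 1000 gene reads over the 6 libraries, Dlgap1 2.89, Dlgap2 1.39 and Dlg2 0.195. The most abundant circle of Dlgap1, exons 10 to 12, had 202 reads in all. It counted 32, 31 and 38 reads in contralateral and 30, 47 and 24 reads in ipsilateral V1. That of Dlg1, exons 12 to 14, counted 23, 14 and 17 reads in contralateral and 18, 30 and 14 in ipsilateral V1. In both, the highest count was that of ipsilateral mouse 2, the most deeply sequenced library. After scaling, contralateral mouse 1 was the highest for both circles and the groups overlapped. Their log2 fold changes on library-scaled counts were 0.21 (SE 0.35) and 0.05 (SE 0.43), both with an adjusted p of 0.999 by edgeR's quasi-likelihood test.

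The other circles of these hosts had less depth. Dlg1 exons 5 to 14 counted 13, 6 and 8 reads in contralateral and 8, 7 and 5 in ipsilateral V1, and Dlg1 exons 5 to 12 counted 2, 3 and 2 against 1, 2 and 8. Dlgap1 exons 10 and 11 counted 6, 5 and 11 reads in contralateral and 8, 23 and 11 in ipsilateral V1, and Dlgap1 exons 8 and 9 counted 4, 1 and 4 against 4, 1 and 5. The intronic Dlg2 circle counted 3, 3 and 4 against 5, 4 and 6. All 5 pairs of groups overlapped when scaled to the library, and so few reads limit what can be detected. Their log2 fold changes lay between -0.68 and 0.62, each with an adjusted p of 0.999 by edgeR's quasi-likelihood test. Dlgap1 exons 10 and 11 had -0.68 (SE 0.57) and was higher in contralateral V1 in 0 of 3 mice. Its groups overlapped narrowly, at 568.6 CPM in contralateral mouse 3 against 567.6 CPM in ipsilateral mouse 1. Over all circRNAs tested, 0 of 1468 passed an adjusted p of 0.05 in edgeR's quasi-likelihood test (0% called), with 52 (3.54%) at an unadjusted p under 0.05 and 0 passing in DESeq2.

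The circle of Dlgap2 exons 8 and 9 was the single member-hosted circRNA whose groups did not overlap. It counted 5, 7 and 8 reads in contralateral V1 of mice 1, 2 and 3 and 3, 3 and 1 reads in ipsilateral V1, so it was higher in contralateral V1 in 3 of 3 mice. Of all circRNAs tested, 3.81% had groups that did not overlap in this direction. Its log2 fold change was 1.64 (SE 0.78, 95% interval 0.10 to 3.17), and edgeR's quasi-likelihood test gave an unadjusted p of 0.0367 and an adjusted p of 0.999. Of all circRNAs, 1.63% were higher at an unadjusted p under 0.05. Per 1000 Dlgap2 gene reads it stood at 1.90, 2.66 and 2.51 in contralateral and 0.988, 0.623 and 0.321 in ipsilateral V1. An exact two-sided permutation test of 3 against 3 libraries gave p = 0.1 (0.4 adjusted over 12 values). Any groups without overlap give that p, so it adds nothing to the lack of overlap. The exact sign-flip test over 3 mice, which keeps the pairing, gave p = 0.25, the smallest it can give. The log2 ratio of circular to host counts differed by 1.77 (SE 0.59), with an unadjusted p of 0.00738 and an adjusted p of 0.987 by limma over 1415 ratios, of which 0 passed (0% called) and 3.96% had an unadjusted p under 0.05. Over 12 alternative settings the log2 fold change ranged from 1.36 to 2.10 and the adjusted p from 0.925 to 0.999. With 27 reads in all, this circRNA did not pass any test adjusted over the table.

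**Figure D5:**
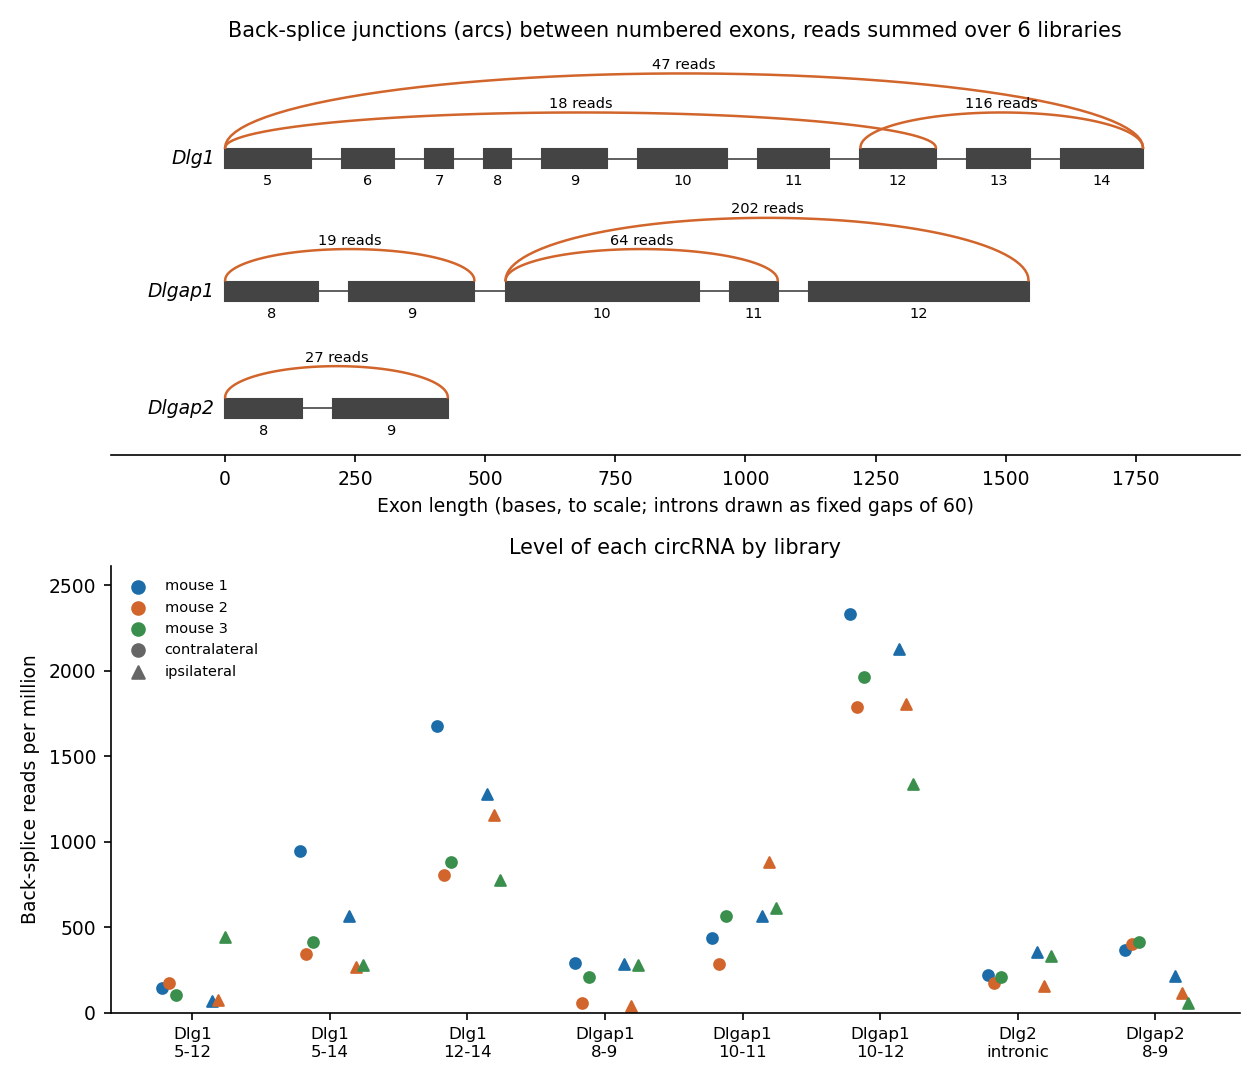
Top, exons of Dlg1, Dlgap1 and Dlgap2 drawn to scale in bases, with arcs for back-splice junctions and their reads over 6 libraries. Bottom, TMM-scaled level of the 8 circRNAs (back-splice CPM) in each library, with colours for mice, circles for contralateral and triangles for ipsilateral V1. The Dlgap2 circle is higher in 3 contralateral libraries than in 3 ipsilateral ones, and the other 7 overlap.

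The use of alternative ends within a host was compared as shares, with an exact two-sided permutation test of 3 against 3 libraries and adjustment over 3 comparisons. For Dlgap1, the circle of exons 10 and 11 made up 15.8%, 13.9% and 22.4% of it and exons 10 to 12 together in contralateral V1, and 21.1%, 32.9% and 31.4% in ipsilateral V1. It was lower in contralateral V1 in 3 of 3 mice, but the groups overlapped (exact permutation p = 0.2, adjusted 0.3). Summed over libraries, the shares were 22 of 123 reads, or 17.9% (exact Clopper-Pearson 95% interval 11.6% to 25.8%), and 42 of 143 reads, or 29.4% (22.1% to 37.6%), intervals that cover counting error only. For Dlg1, exons 5 to 14 made up 36.1%, 30.0% and 32.0% of it and exons 12 to 14 together in contralateral V1 and 30.8%, 18.9% and 26.3% in ipsilateral V1. Those groups overlapped as well (exact permutation p = 0.2, adjusted 0.3). The share of exons 5 to 12 among the circles that start at Dlg1 exon 5 gave an exact permutation p of 0.8.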

How the data were processed

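Per the file headers, the gene table deposited by the authors gives unnormalized read counts and a summed exon length for each Ensembl gene, as featureCounts writes them. Per the file headers, the deposited table of circRNAs gives unnormalized back-splice counts, positions and hosts. A deposited signal value per circRNA, normalized by the authors, matched a quantile normalization of the counts for 1488 of 1488 circRNAs and served as an alternative. GRCm38, HISAT2, featureCounts, limma and DESeq2 appear in the submitters' processing notes. The circRNA caller, the strand setting and the release of the annotation were not given in the sources used here. Symbols and transcripts came from GENCODE M21, in which 52489 of 52636 IDs matched.

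Genes were tested with edgeR 4.0.16 (quasi-likelihood, TMM, filterByExpr with a minimum count of 10 and a total of 15) in R 4.3.3, and p was adjusted by Benjamini-Hochberg (threshold 0.05). CircRNAs needed at least 2 reads in 3 libraries. Ratios of circular to host counts were tested with limma 3.58.1 on log2((circRNA + 0.5)/(host + 0.5)). SEs were derived from the F statistic as the size of the log2 fold change divided by its root. DESeq2 1.42.0 was an alternative, and figures were drawn with matplotlib 3.10.9. The scripts were tested on simulated data. GC content was that of the principal transcript where one is marked, else of the longest coding transcript, else of the longest transcript. A value was available for 99.9% of genes of at least 10 CPM.

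Same-numbered libraries come from the same mouse per the labels, so hemispheres are paired. Within mice 1, 2 and 3, the libraries' deviations from their group means had correlations of 0.431, 0.0775 and 0.172, and at most -0.188, 0.177 and 0.177 with another mouse. The labels say that the mice are separate animals.

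The members, partner lists and markers were chosen with earlier results of these data known. All 9 members are named, with up to 4 genes of smallest p per list and those that passed, the 3 genes most like Dlg4, and the circRNA with most reads per host. The other 4 circRNAs were described after their values were seen.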

Additional observations from a re-analysis of the deposited data

How the results depend on the processing

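In all 21 alternatives for genes, 12 for circRNAs and 8 for ratios, 0 members passed. Dlg1, Dlgap1 and Dlgap2 kept their direction in all 21, and Dlgap2 exons 8-9 in all 12. The number of genes passing was 26, 183 with the replicate block, 89 with DESeq2, 109 with no filter, 47 with the GC trend removed and 194 with that and the block. It was 0 without mouse 2, 14 without mouse 3 and 0 to 35 when each library was left out in turn. The block moved no member across the threshold. CircRNAs passing numbered 0 to 2 when each library was left out. The causes were not tested.

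The log2 fold change of 6 members changed sign in at least 1 alternative. Dlg4 was 0.0191 with upper-quartile scaling, 0.0249 with library totals, 0.0301 without mouse 1 and 0.0773 in the low mt-Rnr1 libraries. Dlg3 was 0.000332 without mouse 2 and 0.0386 in the low mt-Rnr1 libraries. Baiap2 was 0.0272 without mouse 2 and 0.178 in the low mt-Rnr1 libraries. Dlg2 was -0.0379 in the low mt-Rnr1 libraries. Dlgap4 was -0.0915 without mouse 3, -0.149 in the high mt-Rnr1 libraries, -0.00375 with the GC trend removed and -0.0046 with that and the replicate block. In each mt-Rnr1 split, 1 hemisphere is left with a lone library, whose variation is assumed to equal that of the rest.

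With each library left out in turn, Dlg2 ranged from -0.00538 to 0.0676, Dlg3 from -0.226 to 0.0131, Dlg4 from -0.156 to 0.0835, Dlgap3 from -0.0820 to 0.408, Dlgap4 from -0.130 to 0.0808 and Baiap2 from -0.272 to 0.0283. Dlg1 exons 5-12 ranged from -0.91 to 0.89, exons 12-14 from -0.33 to 0.24 and Dlgap1 exons 8-9 from -0.59 to 0.49. The ratio to host ranged from -0.0994 to 0.962 for Dlg1 exons 5-12 and from -0.42 to 0.77 for Dlgap1 exons 8-9. With gene totals, back-splice totals and no filter, Dlgap1 exons 8-9 was 0.139, 0.0262 and 0.0361. The median count was 6 reads for a circRNA in a library, which limits what can be detected.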

Other observations

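Within the introns of Dlg2, on the same strand, GENCODE M21 lists 21 short features, 19 of them TEC transcripts, with 76.7 kb in all. They summed to 283, 507 and 351 CPM in contralateral V1 of mice 1, 2 and 3 and to 275, 265 and 312 CPM in ipsilateral V1. The contralateral library was the higher in 3 of 3 mice, but the groups overlapped (exact two-sided permutation p = 0.2, where 0.1 is the smallest possible). All 20 tested features had log2 fold changes above 0, with a median of 0.34, while 44.6% of all genes lay below 0. They lie within 1 gene and were measured in the same libraries, so they are not 20 separate observations. In edgeR's quasi-likelihood test 0 passed, beside 0.127% of all genes. With the mouse block 1 did, beside 0.894% of all genes. It was Gm45159, at 93.9 ± 25.3 CPM in contralateral and 60.05 ± 2.25 CPM in ipsilateral V1 (log2 fold change 0.62, adjusted p = 0.0138). The exonic counts of Dlg2 differed by 0.04 on the log2 scale. The other 2988 TEC genes summed to 6095, 9489 and 7577 CPM in contralateral and 6158, 6182 and 7478 CPM in ipsilateral V1, highest in the same contralateral library of mouse 2. The part of that library's make-up in the Dlg2 features was not tested.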
